A study of Mus musculus with 12 samples.

Results

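The 4 nuclear factor I genes Nfia, Nfib, Nfic and Nfix and the zinc finger gene Zbtb20 were followed through RNA-seq libraries of GFP-sorted mouse spinal cord cells. The genes were taken by symbol, and all 5 were present among 24421 entries of the deposited table. Per the labels, cells were sorted from Aldh1l1-GFP reporter mice, and the compared groups were male Nkx6.1 cKO, male control, female Nkx6.1 cKO and female control, with 3 labelled libraries in each. The reporter was carried by all 4 groups, and Nkx6.1 is a homeobox factor of the ventral neural tube, written Nkx6-1 in the deposited table. The labels give neither the Cre line that made the conditional knockout, nor the age of the mice, nor the alleles of the controls, and they do not say whether replicates were separate animals. The p-values thus reflect the scatter of these libraries alone, part of which could come from handling.

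NFI proteins bind DNA as dimers at a palindrome of the letters TTGGC, a spacer and GCCAA, through a conserved N-terminal domain, and can activate or repress. Nfia and Nfib mark the switch of spinal cord progenitors from making neurons to making glia, and both stay on in mature astrocytes. Nfix is best known from neural stem cells and their later differentiation, and Nfic from tooth root formation. Zbtb20 is a transcriptional repressor with a BTB domain, required for hippocampal patterning and reported to promote astrocyte formation in the mouse cortex beside Sox9 and Nfia.

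Library totals were 2246412 to 9054934 reads in genes. Between the library labelled male cKO replicate 2 and female cKO replicate 2, chi-square per degree of freedom was 1.056, where the 65 other pairs of libraries had at least 15.2, so their reads differed by hardly more than sampling noise. The library labelled male also had 3546 Xist reads and 0 reads of Y-linked genes, against its sex label. The pair was counted as 1 sample by leaving out the library labelled male cKO replicate 2, so male cKO had 2 libraries and 11 entered the fit. Nkx6-1 had 0 reads in replicate 1 of both cKO groups and in female cKO replicate 2, but 18 and 19 reads in male and female cKO replicate 3, against 2 to 19 reads in control libraries. Reads of the targeted gene therefore do not set replicate 3 of either cKO group apart from controls. All 19 astrocyte markers were detected in all 12 libraries, and so were all 12 oligodendrocyte markers. The summed level of the oligodendrocyte markers was the larger of these sums in 10 of 11 libraries compared. The sums were not set per length, and the most abundant genes weigh most in them. By mean log2 level, astrocyte markers were the higher in male cKO replicates 1 and 3, female cKO replicate 2 and female control replicate 3. Oligodendrocyte markers were the higher in the remaining libraries. Neither measure gives the share of either cell type. Library names number the male libraries before the female ones, so sex and library order cannot be told apart.

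The 5 genes were well covered. Across all 12 libraries the lowest count of reads was 826 for Nfia, 624 for Nfib, 241 for Nfic, 362 for Nfix and 564 for Zbtb20. Counting alone thus gave an error of at most 6.44% (Nfic) in any library. Values below are the authors' normalized counts, which are reads divided by a size factor per library.

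Nfia (ENSMUSG00000028565.18, GRCm38 chromosome 4, 97772734 to 98118874, plus strand) lay between 1473 and 2654 normalized counts in the 11 libraries. In male cKO it stood at 2527 (replicate 1) and 2152 (replicate 3) normalized counts, against 1473, 1661 and 1770 in male control replicates 1 to 3. Female cKO replicates 1 to 3 had 1534, 1851 and 2095, against 1905, 1660 and 2654 in female control replicates 1 to 3. Both male cKO libraries lay above all male controls, while the female groups overlapped. The group means were 2339 ± 266 in male cKO (SD, n = 2) and 1635 ± 150 in male controls (SD, n = 3), and 1827 ± 281 in female cKO and 2073 ± 518 in female controls (SD, n = 3 for either group). By their means the groups ran down from male cKO through female controls and female cKO to male controls, and the ranges of neighbours overlapped.

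Nfib (ENSMUSG00000008575.17, chromosome 4, 82290173 to 82705750, minus strand) had the narrowest range of the 5, with its highest library 1.62 times its lowest. Male cKO replicates 1 and 3 had 1614 and 1938 normalized counts, against 1223, 1380 and 1337 in male controls. Female cKO libraries had 1206, 1395 and 1449, against 1539, 1200 and 1498 in female controls. Again male cKO lay above male control without overlap, and the female groups overlapped. Means were 1776 ± 229 in male cKO (SD, n = 2) and 1314 ± 81.3 in male controls (SD, n = 3), and 1350 ± 128 in female cKO and 1412 ± 185 in female controls (SD, n = 3 for either group). The order of the groups was that of Nfia, and male cKO lay above the female controls without overlap while the lower neighbours overlapped.

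Nfic (ENSMUSG00000055053.18, chromosome 10, 81396186 to 81455635, minus strand) varied most among the NFI genes. Its male cKO libraries had 1070 and 956 normalized counts, against 815, 857 and 517 in male controls. Its female cKO libraries had 1014, 546 and 540, against 467, 899 and 811 in female controls. Male controls, female cKO and female controls each held low libraries (467 to 546) beside high ones (811 to 1014). Means were 1013 ± 80.7 in male cKO (SD, n = 2) and 729 ± 185 in male controls (SD, n = 3), and 700 ± 272 in female cKO and 726 ± 228 in female controls (SD, n = 3 for either group). Male cKO lay above both control groups, while 1 female cKO library (1014) fell inside its range and the remaining groups overlapped.

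Nfix (ENSMUSG00000001911.16, chromosome 8, 84699876 to 84800344, minus strand) showed another pattern. It had 1130 and 1116 normalized counts in male cKO, inside the range of male controls with 1282, 1565 and 776. Female cKO libraries had 1366, 1216 and 950, all below the female controls with 1397, 1430 and 1465, though the highest only just. Means were 1123 ± 10.1 in male cKO (SD, n = 2) and 1208 ± 400 in male controls (SD, n = 3), and 1177 ± 211 in female cKO and 1431 ± 34.1 in female controls (SD, n = 3 for either group). In the order female control, male control, female cKO and male cKO, neighbouring groups overlapped.

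Zbtb20 (ENSMUSG00000022708.16, chromosome 16, 42875881 to 43642602, plus strand) had 1946 and 1738 normalized counts in male cKO, against 1099, 990 and 1209 in male controls. It had 1410, 1181 and 1194 in female cKO, against 1008, 884 and 1398 in female controls. Male cKO stood above every other library, while 1 female control (replicate 3) reached the female cKO range. Means were 1842 ± 147 in male cKO (SD, n = 2) and 1099 ± 109 in male controls (SD, n = 3), and 1262 ± 128 in female cKO and 1097 ± 268 in female controls (SD, n = 3 for either group). In the order male cKO, female cKO, male control and female control, only male cKO did not overlap with its neighbour.

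**Figure D1:**
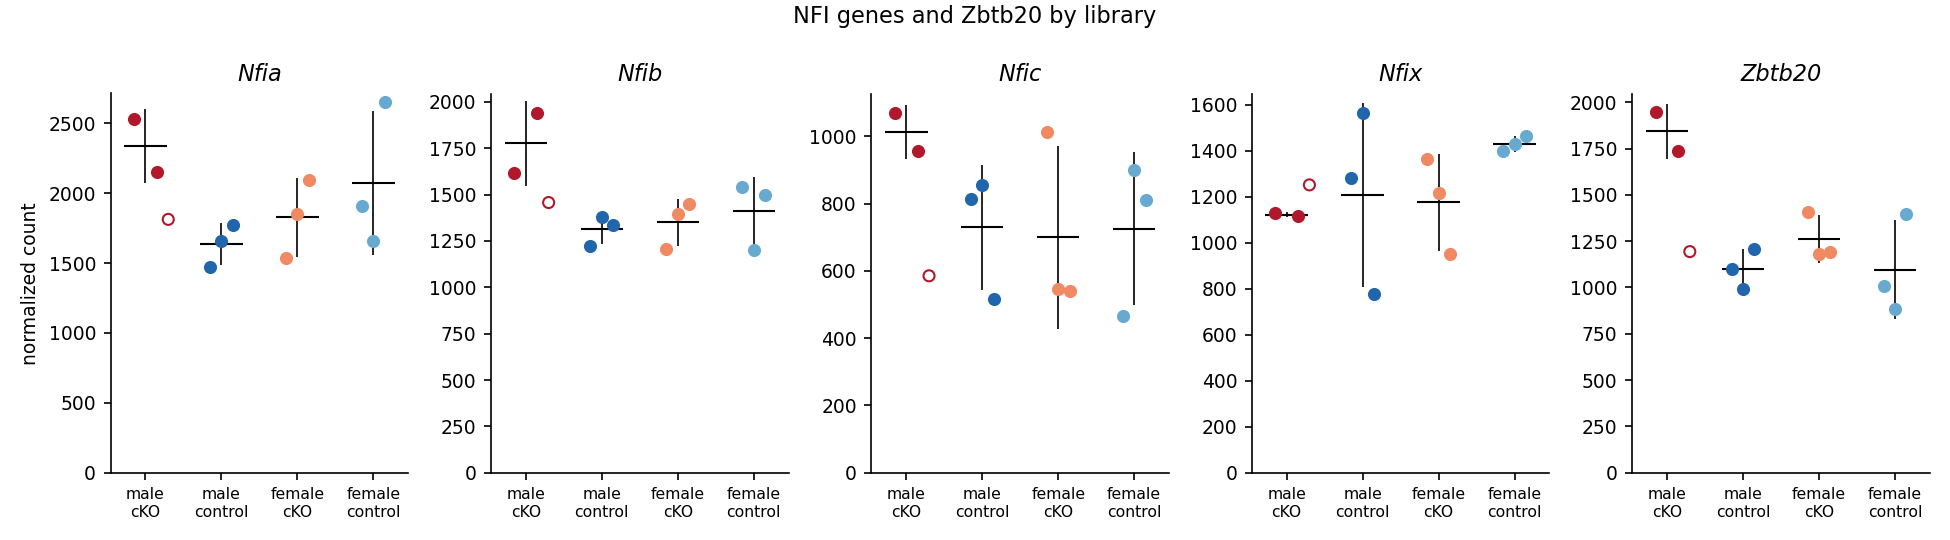
Normalized counts of Nfia, Nfib, Nfic, Nfix and Zbtb20 in each library by group; lines are group means with SD, and the open circle is the left-out library labelled male cKO replicate 2. Zbtb20 stands at 1946 and 1738 in male cKO against 990 to 1209 in male controls, while the left-out library holds 1194.

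The left-out library had 1812 normalized counts of Nfia, 1457 of Nfib, 585 of Nfic, 1252 of Nfix and 1194 of Zbtb20. With it counted as a male cKO library, Nfia and Nfib still lay above all male controls, whereas Nfic and Zbtb20 overlapped with them.

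Levels can be set beside each other between genes only per length. Per kb of merged GENCODE exons, median normalized counts over the 11 libraries were 174 for Nfix, 170 for Nfia, 123 for Nfic, 93.3 for Nfib and 38.9 for Zbtb20. Per kb of the longest annotated transcript they were 234, 194, 131, 153 and 44.4 in the same order of genes, so Nfib and Nfic changed places. The transcripts that were counted are not given in the sources used here. Zbtb20 was the lowest per kb by either length, and its merged exons cover 30.7 kb, against 6.63 kb for Nfic. Exons of Nfia overlap E130114P18Rik on the opposite strand (at most 92.6 normalized counts), and an exon of Zbtb20 holds Mir568 on the same strand (at most 143). Whether reads were counted by strand is not given in the sources used here, so a part of the reads at these places could belong to either gene.

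The first comparison asked how these factors stood in the sorted cells of the libraries labelled cKO, set against those labelled control, in the average of the sexes. Zbtb20 was higher in cKO by a log2 fold change of 0.49 (SE 0.19), or 1.40-fold with a 95% interval of 1.06 to 1.85. Its unadjusted limma p was 0.0196 and its adjusted p = 0.497 over 13108 genes, so it did not pass. Nfia had 0.18 (SE 0.19), Nfib 0.18 (SE 0.18), Nfic 0.22 (SE 0.24) and Nfix -0.17 (SE 0.21), with limma adjusted p = 0.817 to 0.853. In this comparison 0 of the 5 passed in limma, edgeR or DESeq2, where the limma share over all genes tested was 0%. At an unadjusted limma p under 0.05, 1 of 5 was past the threshold, and 8.57% of all genes. Over all genes limma called 0 (1123 at an unadjusted p under 0.05), edgeR called 0 and DESeq2 called 29. The 95% interval of the log2 fold change was -0.22 to 0.57 for Nfia, -0.19 to 0.56 for Nfib, -0.29 to 0.73 for Nfic and -0.61 to 0.26 for Nfix.

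In males, the cKO estimates were higher for 4 of the 5, and for 48.1% of all genes tested. Zbtb20 had a log2 fold change of 0.75 (SE 0.29), 1.68-fold with an interval of 1.11 to 2.54, an unadjusted limma p of 0.0165 and an adjusted p = 0.408. Nfia had 0.52 (SE 0.28), Nfic 0.51 (SE 0.36) and Nfib 0.43 (SE 0.27), with limma adjusted p = 0.590 to 0.701, and Nfix had -0.05 (SE 0.31, adjusted p = 0.978). In this comparison 0 of 5 passed in limma, against 0% of all genes, and Zbtb20 was the 1 member past an unadjusted p of 0.05 on the higher side, where 4.17% of all genes were. Nfia, Nfib, Nfic and Zbtb20, or 4 of 5, were higher in male cKO without overlap, where 12.7% of all genes tested were. With all 12 libraries this count was 2 of 5 (Nfia and Nfib), against 6.73% of all genes. The median of the 5 estimates was 0.51, and that over all genes -0.04. For males limma called 0 genes (1271 at an unadjusted p under 0.05), edgeR 0 and DESeq2 84. Without male cKO replicate 3 limma called 22 genes, without both cKO replicate 3 libraries 14 and without female control replicate 2 it called 11, with 0 of the 5 among them each time. Those fits that leave 1 male cKO library assume that it varies like the other groups.

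In females, the estimates lay closer to 0 than in males for all but Nfix. Zbtb20 had 0.22 (SE 0.26), Nfib -0.06 (SE 0.24), Nfic -0.06 (SE 0.33), Nfia -0.17 (SE 0.25) and Nfix -0.30 (SE 0.28), each with a limma adjusted p of 0.999. None of the 5 passed, and 0% of all genes did (511 at an unadjusted p under 0.05 in limma, 0 called by edgeR and 2 by DESeq2). Nfix, or 1 of 5, was lower in female cKO without overlap, where 4.75% of all genes tested were. The 95% interval for Nfib was 0.675 to 1.36-fold and that for Nfix 0.545 to 1.22-fold. The estimate for Nfia was 0.027 without female control replicate 3, and that for Nfib was 0.019 without female cKO replicate 1 and 0.0056 without female control replicate 1, so neither sign was stable.

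**Figure D2:**
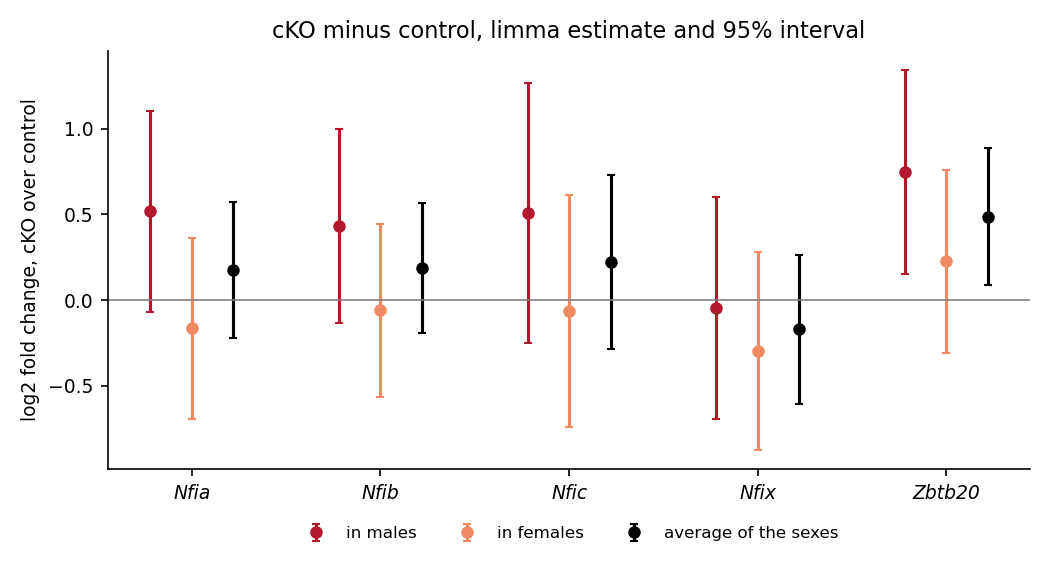
Limma log2 fold changes of cKO over control with 95% intervals (not adjusted for the number of genes), for males, females and the average of the sexes. The intervals for Zbtb20 in males and in the average lie above 0, while those of the 4 NFI genes span 0 in each comparison.

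The sexes were then set against each other. The cKO effect in females minus that in males was -0.68 (SE 0.38) for Nfia, -0.57 (SE 0.49) for Nfic, -0.52 (SE 0.38) for Zbtb20, -0.49 (SE 0.37) for Nfib and -0.25 (SE 0.42) for Nfix. All 5 differences were negative, while 51.8% of those over all genes tested were positive. None of the 5 passed (limma adjusted p = 0.895 to 0.969, with 0% of all genes passing). A difference between the sexes was thus not detected for any of them. Among controls, female minus male was 0.32 (SE 0.25) for Nfia, 0.30 (SE 0.28) for Nfix, 0.10 (SE 0.24) for Nfib and -0.03 for both Nfic and Zbtb20. Scaling by TMM turned the last pair to 0.024 each, and 0 of 5 passed in limma here, against 0.0381% of all genes. The female and male control ranges overlapped for all 5, where 3.05% of all genes were higher and 4.94% lower in female controls without overlap.

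Ratios between members within a library depend neither on the scaling nor on the length of the genes, and 10 pairs were compared. The pairs of smallest p both held Zbtb20. The log2 ratio of Nfia over Zbtb20 averaged 0.34 ± 0.05 in male cKO and 0.57 ± 0.16 in male controls, and 0.53 ± 0.36 in female cKO and 0.92 ± 0.01 in female controls (SD, n = 2 for male cKO and 3 for the others). The average difference was -0.31 (exact permutation test within each sex, two-sided p = 0.01, adjusted p = 0.1 over the 10 pairs). The log2 ratio of Nfix over Zbtb20 averaged -0.71 ± 0.10 in male cKO and 0.08 ± 0.66 in male controls, and -0.11 ± 0.19 in female cKO and 0.41 ± 0.32 in female controls. Its difference was -0.66 (exact permutation p = 0.03, adjusted p = 0.15). The Nfia over Zbtb20 ratio did not overlap in females (0.12 to 0.81 in cKO, 0.91 to 0.92 in controls) or males (0.31 to 0.38 against 0.42 to 0.75). Nfix over Zbtb20 did not overlap in females (-0.33 to 0.04 against 0.07 to 0.69) and barely so in males (-0.78 to -0.6393 against -0.6390 to 0.66). Nfic over Nfix did not overlap in males (-0.22 to -0.08 against -0.87 to -0.59). All other ratios overlapped in either sex. The share of such ratios among pairs of other genes was not computed. The other 8 pairs had adjusted p = 0.1875 to 0.935 in the same exact permutation test, and no pair passed. The smallest p these 200 arrangements allow is 0.005.

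Most astrocyte markers varied more between the same libraries than these factors did. The SD of log2 values over the 11 libraries was above that of Nfic (0.43, the highest of the 5) for 17 of 19 markers, with a median of 0.94, and was not for Kcnj10 and Glul. The mean log2 level of 19 astrocyte markers was 11.5 to 11.7 in male cKO, 9.53 to 10.7 in male controls, 10.7 to 11.57 in female cKO and 9.62 to 11.5 in female controls. In males 19 of 19 were higher in cKO with a median log2 fold change of 1.78, and 0 passed in limma (14 at an unadjusted p under 0.05, where 4.17% of all genes were on the higher side). The estimate was above that of Zbtb20 (0.75) for 16 of 19, and was 0.56 for Aldh1l1, 0.60 for Kcnj10 and 0.04 for the glutamine synthetase gene Glul. The glutamate transporter Slc1a2 averaged 47536 ± 9129 normalized counts in male cKO (n = 2) and 14766 ± 8617 in male controls (SD, n = 3). The water channel gene Aqp4 averaged 8489 ± 56.1 in male cKO and 2380 ± 1199 in male controls. Summed oligodendrocyte markers were 138576 to 369452 in male cKO and 130334 to 219538 in male controls, and 143233 to 458310 in female cKO and 156369 to 324457 in female controls. Of the 12 oligodendrocyte markers 10 were lower in male cKO, with a median of -0.99, 0 passing in limma and 7 at an unadjusted p under 0.05 on the lower side, where 5.53% of all genes were. The myelin genes Mbp (1.39, SE 1.05) and Mobp (0.04, SE 0.62) were the higher ones in male cKO, so sums and medians need not go the same way. In bulk libraries, fewer cells of a type and less RNA per cell cannot be told apart.

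Across the 11 libraries the SD of log2 values was 0.21 for Nfib, 0.28 for Nfia, 0.30 for Nfix, 0.35 for Zbtb20 and 0.43 for Nfic. It was 0.86 for Aldh1l1, the gene behind the sorting reporter, 1.02 for Aqp4, 1.03 for Slc1a2 and 1.19 for Gfap. Among genes within 0.5 log2 units of the same mean level, 11.3% had a smaller SD than Nfib, 31.0% than Nfia, 38.3% than Nfix, 48.1% than Zbtb20 and 66.7% than Nfic. For Gfap, the intermediate filament gene of astrocytes, this share was 99.3%. Within groups, the SD was 0.15 for Nfib, and 2.82% of genes of like level had a smaller one.

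**Figure D3:**
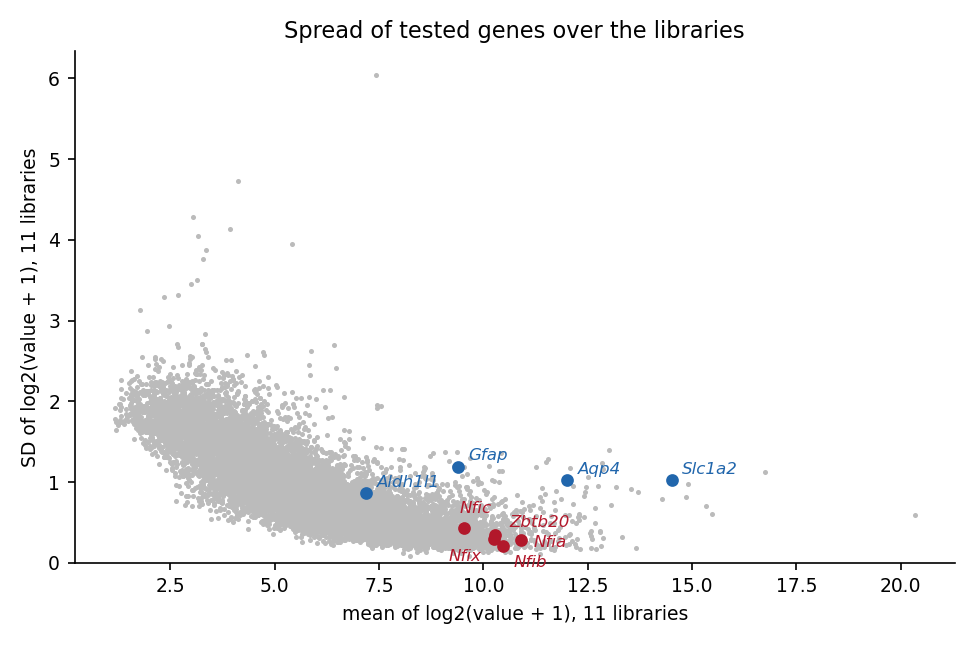
SD against mean of log2(value + 1) over 11 libraries for each tested gene (grey), with the 5 factors in red and 4 astrocyte reference genes in blue. The factors lie between 0.21 and 0.43, among genes of like level, while Gfap, Aqp4 and Slc1a2 lie above 1.

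Correlations with the marker sets differed in sign and size between the factors, and these differences were not tested. Over 11 libraries, 10 relations were computed between a member and a marker mean, with permutation p-values adjusted over the 10. Libraries were permuted without regard to group, so differences between groups enter each relation. Nfib rose with the astrocyte marker mean (Pearson r = 0.71, permutation p = 0.0123, adjusted p = 0.0409; Spearman rho = 0.80, p = 0.00442, adjusted p = 0.0221). Nfia had r = 0.68 (permutation p = 0.0224, adjusted p = 0.0541; rho = 0.70, p = 0.0203, adjusted p = 0.0507) and Zbtb20 r = 0.66 (permutation p = 0.0270, adjusted p = 0.0541; rho = 0.53, p = 0.103, adjusted p = 0.147), which did not pass. The slope was 0.18 log2 units of Nfib for each log2 unit of the marker mean. Nfic had r = -0.20 and Nfix r = -0.25 with the astrocyte mean (permutation p = 0.537 and 0.466, adjusted p = 0.597 and 0.582; rho = -0.15 and -0.43, p = 0.673 and 0.194, adjusted p = 0.747 and 0.242).

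Nfix instead rose with the oligodendrocyte marker mean (r = 0.73, permutation p = 0.0101, adjusted p = 0.0409; rho = 0.81, p = 0.00385, adjusted p = 0.0221). Zbtb20 fell with it (r = -0.73, permutation p = 0.0105, adjusted p = 0.0409; rho = -0.74, p = 0.0129, adjusted p = 0.0431). Nfia had r = -0.59 and Nfib r = -0.54 (permutation p = 0.0552 and 0.0843, adjusted p = 0.0920 and 0.120; rho = -0.66 each, p = 0.0313 and 0.0308, adjusted p = 0.0522 each). Nfic had r = 0.12 (permutation p = 0.733, adjusted p = 0.733; rho = -0.03, p = 0.946, adjusted p = 0.946). Without the 2 libraries farthest from the median of the marker mean, r was 0.77 for Nfib with astrocyte markers, and 0.77 for Nfix and -0.56 for Zbtb20 with oligodendrocyte markers.

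Within the 6 female libraries r was 0.77 for Nfib with astrocyte markers, and 0.82 for Nfix and -0.37 for Zbtb20 with oligodendrocyte markers. Within the 6 control libraries these were 0.81, 0.79 and -0.65. None passed in these smaller sets (permutation adjusted p = 0.221 to 0.503), and no value was computed within the 5 male libraries. Without the 2 libraries farthest from the median of the marker mean, r in females was -0.35 for Nfix, 0.74 for Nfib and -0.69 for Zbtb20. In controls r was 0.21 for Nfib, 0.12 for Nfix and -0.92 for Zbtb20 without the 2 farthest libraries. So few libraries then remain that these values only describe how far r depends on single libraries. Depth was read beside these measures. Nfix had r = 0.81 with log2 total reads over the 11 libraries (permutation p = 0.00185, adjusted p = 0.0259 over 14 relations with depth and ribosomal precursor share; rho = 0.70, p = 0.0203, adjusted p = 0.115), and r was 0.55 without the 2 libraries farthest in depth. The oligodendrocyte mean itself had r = 0.70 with depth (permutation p = 0.0165, adjusted p = 0.0769; rho = 0.68, p = 0.0246, adjusted p = 0.115). The part of depth in the Nfix relation was not tested. The astrocyte mean had r = 0.73 with the share of reads in the ribosomal precursor Rn45s (permutation p = 0.0133, adjusted p = 0.0769; rho = 0.75, p = 0.00968, adjusted p = 0.115), whose part in the Nfib relation was likewise not tested.

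**Figure D4:**
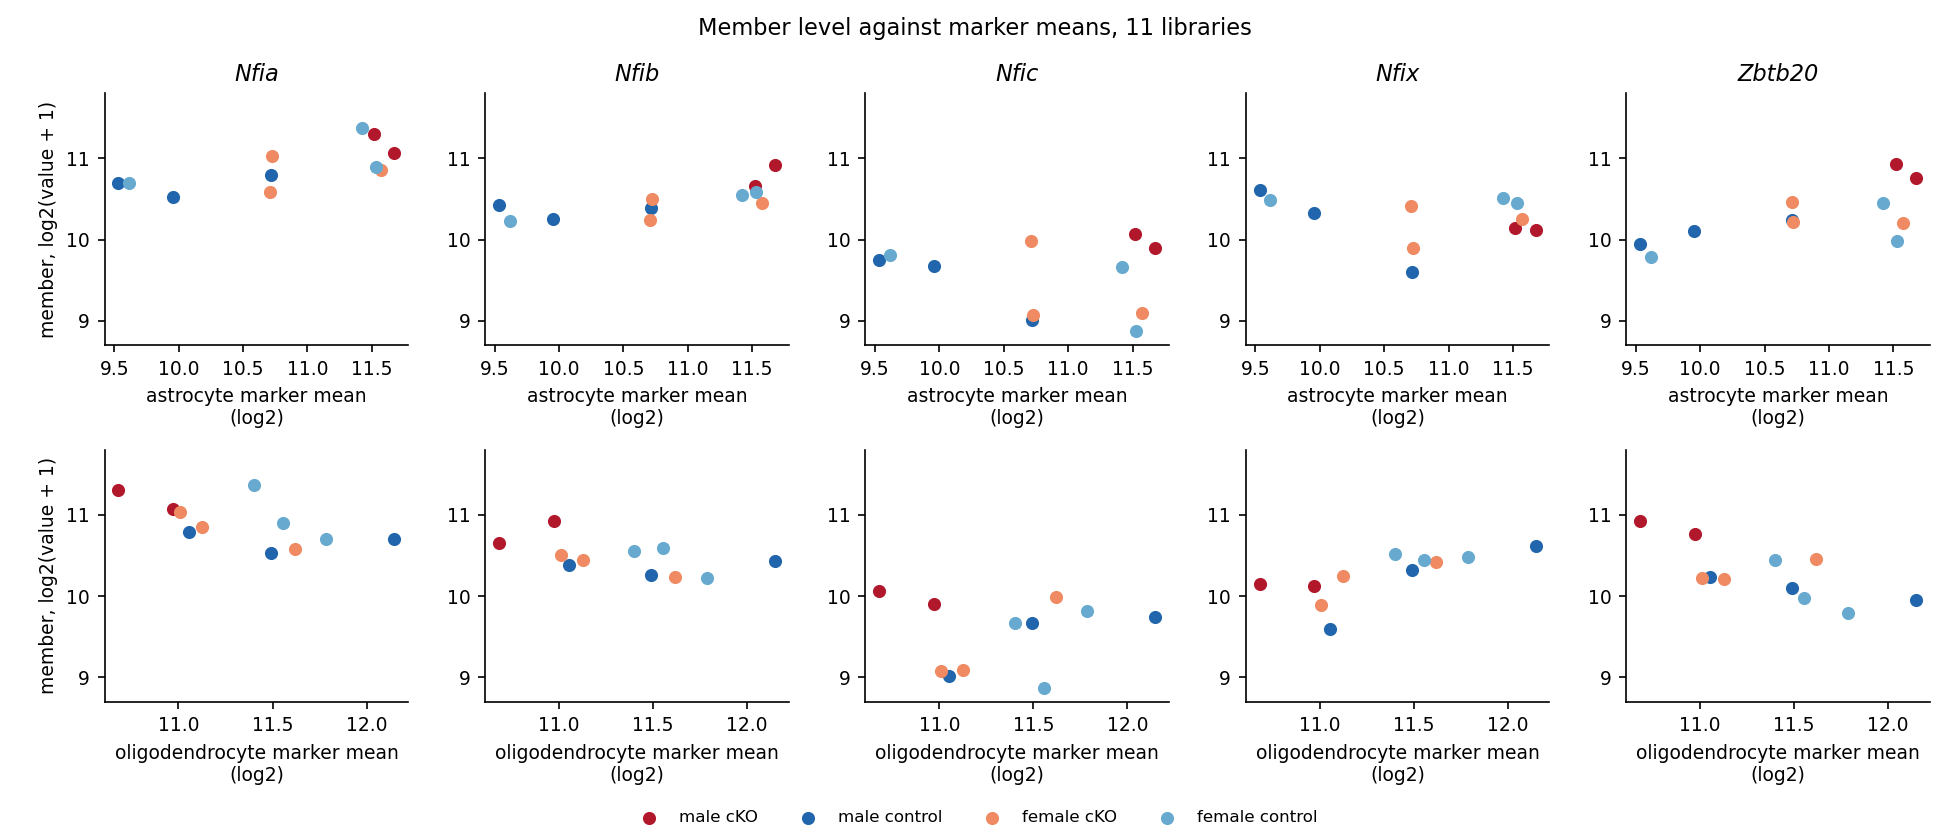
Log2 level of each of the 5 genes against the mean log2 level of 19 astrocyte markers (top) and 12 oligodendrocyte markers (bottom), 1 point per library. Nfib rises with astrocyte markers (r = 0.71), Nfix rises with oligodendrocyte markers (r = 0.73) and Zbtb20 falls with them (r = -0.73).

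When each factor was read relative to the astrocyte marker mean of its own library, cKO minus control averaged over the sexes was -0.66 for Nfia, -0.65 for Nfib, -0.62 for Nfic, -1.01 for Nfix and -0.35 for Zbtb20. In males these differences were -1.01, -1.10, -1.02, -1.57 and -0.78. None passed (exact permutation p = 0.12 to 0.36, adjusted p = 0.217 to 0.36 over the 5), and this reading was chosen after seeing the data. In females they were -0.31, -0.21, -0.21, -0.44 and 0.08. The same marker mean was subtracted for each gene, so within a comparison all 5 estimates moved down by 1 shared amount, the marker difference itself. The estimates of Nfia, Nfib, Nfic and Zbtb20 thus had the opposite sign to those set against the whole library in males and in the average. In females their sign was the same. These signs follow from the marker levels above and are not a separate result for each gene.

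The genes with the most similar profile over the 11 libraries, out of 6352 compared, differed between members. Closest to Nfia were Mras (r = 0.89), Irak2, Gpr146, Abhd6 and Adgrl3 (r = 0.86). Closest to Nfib were the zinc exporter gene Slc30a1 (r = 0.92), the glycolytic genes Pgk1 and Eno1b, Abhd3 and the teneurin Tenm3 (r = 0.89). Nfic was near to Cpeb4 (r = 0.91), Slc4a10, Nrbp2 and Psma6 (r = 0.88). Nfix was nearest to Gnptab (r = 0.94), Fam212b, the neural adhesion gene Ncam1, Trim2 and Gipc1 (r = 0.87). Zbtb20 was nearest to the potassium channel gene Kcnd2 (r = 0.95), the ascorbate transporter gene Slc23a2, Ecm2, Cdc42ep4 and the adhesion receptor gene Adgrb2 (r = 0.88). The genes near Nfix had averaged cKO estimates of -0.40 to -0.16, and those near Zbtb20 had 0.65 to 0.92. These genes were picked for their likeness, and the same libraries give both values.

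Partners and regulators of the NFI and Zbtb20 programme were read from a list of 22 genes, of which 21 passed the filter on low values and Lhx2 did not. In the average of the sexes 15 estimates were higher and 6 lower in cKO, and 0 passed in limma. Of all genes tested, 48.3% were higher. At an unadjusted p under 0.05 were 2 of 21, both higher (Hes5 and Sox9), against 8.57% of all genes in either direction, and the median was 0.21 against -0.02 over all genes. In males 4 of 21 were past an unadjusted limma p of 0.05 on the higher side, where 4.17% of all genes were. Sox9, the factor that acts upstream of Nfia and then pairs with it, had 591 and 1010 normalized counts at its lowest and highest in male cKO, and 174 to 381 in male controls. It had 321 to 404 in female cKO and 365 to 522 in female controls. In males its log2 fold change was 1.65 (SE 0.38, limma adjusted p = 0.229). The female estimate was -0.33 (SE 0.34, limma adjusted p = 0.999). Male cKO lay above male control without overlap, as did 12.7% of all genes tested, while the female groups overlapped. The astrocyte markers had a median log2 fold change of 1.78 in males. The part of the marker level in the estimates of the partner genes was not tested. Sox9, Hes5, Nr2f1, Nr2f2, Sox10 and Stat3 are named because they had the smallest unadjusted limma p of this list in the average.

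Hes5, a Notch effector that holds progenitors undifferentiated, had 61.5 to 65.5 normalized counts in male cKO and 0 to 2.09 in male controls, and 0 to 19.3 in female cKO and 3.81 to 5.57 in female controls. Its limma adjusted p was 0.252 in males, and no fold is given because the male controls were near 0. Nr2f1, a nuclear receptor gene, had 99.9 to 108 in male cKO and 13.8 to 40.2 in male controls (log2 fold change 1.89, SE 0.70, limma adjusted p = 0.383). Its relative Nr2f2 had 0.68 in the average (SE 0.43). The oligodendrocyte lineage factor Sox10 had -0.60 in the average (SE 0.30, limma adjusted p = 0.591), with 252 to 442 in male cKO and 255 to 1041 in male controls. Stat3, which carries the cytokine signal for astrocyte genes, had -0.41 (SE 0.30). Pou3f2, reported to be repressed by Zbtb20 in the mouse cortex, had 0.02 (SE 0.36), and Zbtb45, a close relative of Zbtb20, had -0.60 (SE 0.96).

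**Figure D5:**
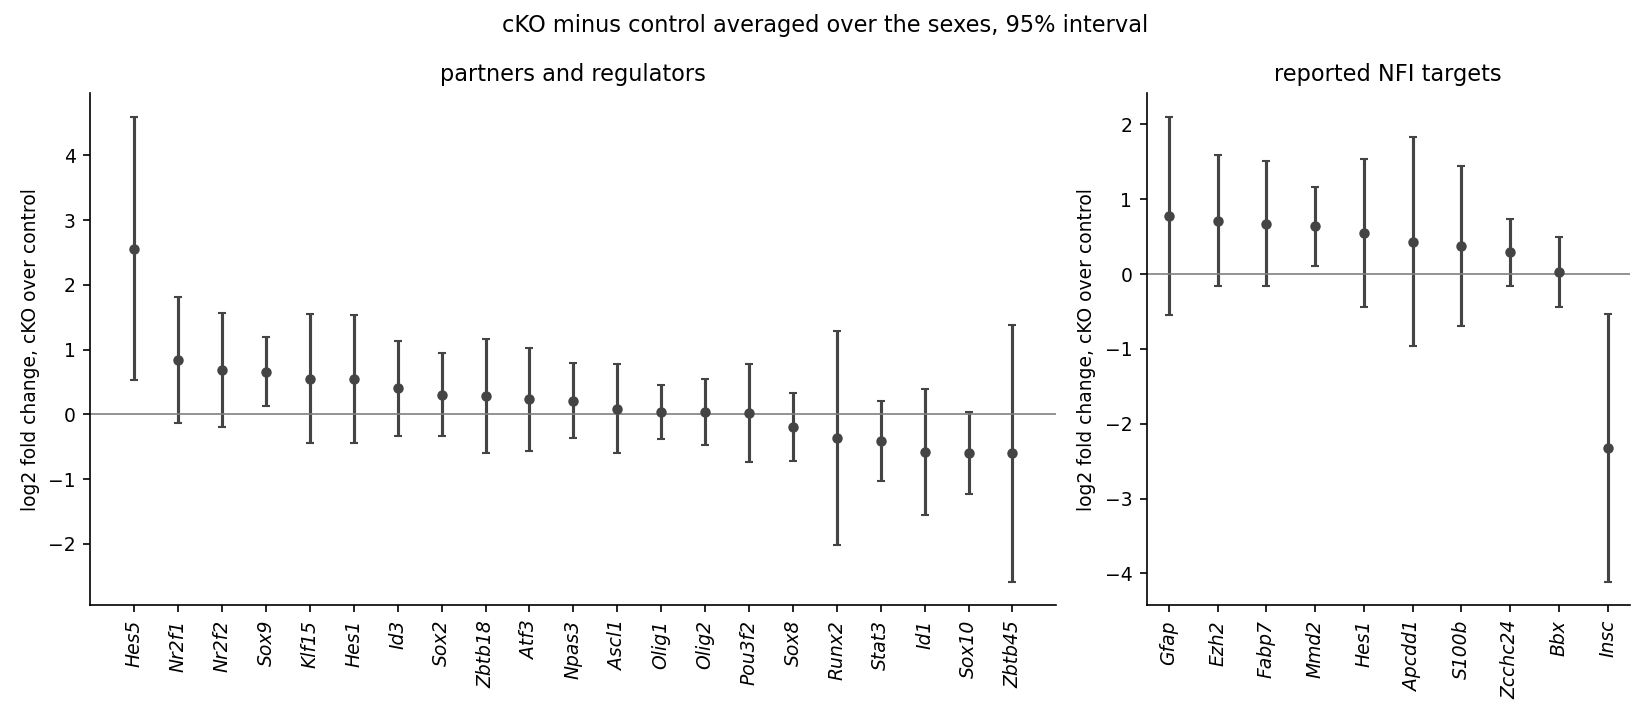
Limma log2 fold changes of cKO over control averaged over the sexes with 95% intervals, for 21 partner and regulator genes and 10 genes reported as NFI targets. Among partners 15 of 21 estimates are above 0, and among reported targets 9 of 10, where 48.3% of all genes tested are. Hes1 is on both lists, and the Hes5 estimate rests on male controls near 0.

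Genes reported as NFI targets in neural cells numbered 10, and all were tested. In the average of the sexes 9 estimates were higher and 1 lower in cKO, and 0 passed in limma. Of all genes tested, 48.3% were higher. At an unadjusted p under 0.05 were Mmd2 on the higher and Insc on the lower side, against 8.57% of all genes in either direction, and the median was 0.49 against -0.02 over all genes. Mmd2, which Sox9 and Nfia control together in chick and mouse spinal cord, had 540 and 1010 normalized counts in male cKO and 281 to 378 in male controls. It had 342 to 538 in female cKO and 317 to 609 in female controls. Its log2 fold change was 1.23 in males (SE 0.38, limma adjusted p = 0.276) and 0.05 in females (SE 0.34). The radial glia gene Fabp7 had 173 and 217 in male cKO and 58.8 to 150 in male controls (1.05, SE 0.59, limma adjusted p = 0.607). Insc, a spindle orientation gene reported to be regulated by Nfix in neural stem cells, had 0 and 58.4 in male cKO and 54.8 to 176 in male controls, with limma adjusted p = 0.378. Fabp7, Mmd2 and Gfap also belong to astrocytes and radial glia, and Gfap is among the 19 astrocyte markers above, and the part of the marker level in these counts was not tested.

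The letters TTGGC or their reverse complement GCCAA, a single block of the NFI palindrome, were looked for in RefSeq promoters (GRCm38.p6, 250 bases before to 50 after the start). At least 1 block was present in 46.7% of 32851 promoters and at least 3 in 3.75%, while the full palindrome, with a spacer of 5 bases, was in 0.0365%. Of the reported targets, S100b, a calcium binding protein gene of glia, held 4 blocks, and Ezh2, a histone methyltransferase gene reported to be repressed by Nfib, held 3. The other 12 windows searched, for members and reported targets, held 0 to 2 blocks, and those of Nfia, Nfic, Zbtb20 and Gfap held 0. The Nfia window (chr4:97581693-97581992) lies outside the Nfia span given above, and those of Nfic and Zbtb20 lie inside their spans. Each thus covers a single annotated start, and other starts of these genes were not searched. No window was available for Nfib, Apcdd1, Hes1 or Bbx. S100b had an averaged log2 fold change of 0.37 (SE 0.48, limma adjusted p = 0.866), and Ezh2 0.72 (SE 0.42, limma adjusted p = 0.650). Both are shown to give the letters that NFI recognises in the setting of a target gene, with the blocks in capitals. The S100b window is chr10:76253586-76253885 on the plus strand and the Ezh2 window chr6:47594981-47595280 on the minus strand. A block is a description of the letters and not a site.
S100b: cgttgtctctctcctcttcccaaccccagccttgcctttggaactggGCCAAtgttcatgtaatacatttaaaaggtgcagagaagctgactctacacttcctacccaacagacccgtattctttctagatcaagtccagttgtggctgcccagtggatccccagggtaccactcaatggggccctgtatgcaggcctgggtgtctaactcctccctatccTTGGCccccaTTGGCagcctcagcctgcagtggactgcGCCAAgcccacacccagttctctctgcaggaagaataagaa
Ezh2: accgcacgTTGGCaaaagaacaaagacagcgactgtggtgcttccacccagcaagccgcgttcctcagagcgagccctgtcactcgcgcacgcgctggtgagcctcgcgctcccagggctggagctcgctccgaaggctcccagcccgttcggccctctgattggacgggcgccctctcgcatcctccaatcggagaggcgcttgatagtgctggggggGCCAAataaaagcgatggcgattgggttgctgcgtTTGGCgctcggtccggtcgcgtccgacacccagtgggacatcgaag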

How the data were processed

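RNA-seq values of sorted spinal cord cells were read from a table of gene symbols by 12 libraries. Per the labels' protocols, libraries were made from 10 ng of total RNA with a Trio RNA-seq kit and sequenced in paired-end mode. The submitters' processing notes name mm10 as the build, and among tools STAR 2.5.0a and DESeq2 1.20.0, beside FastQC 0.10.1 and MultiQC 0.9, without a role for any. The deposited values are a normalized signal per gene: dividing each value by its library's step gave whole reads for 100% of values above 0 (tolerance 0.01 reads), so the deposited signal is a gene count over a size factor of the authors, and the reads could be recovered. Counting and annotation are not given in the sources used here. Intervals of counting error cover counting only.

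The plan named limma for normalized values, and it was used: log2(value + 1), 1 mean per group, intensity trend, robust variance, no replicate block, 11 libraries. Tests covered genes reaching 10 normalized counts in 3 libraries or more, and Benjamini-Hochberg adjusted p-values had a threshold of 0.05. The genes followed, the gene lists and the tests were chosen with earlier results of these data known. Named genes were the 5 members, the 6, 4 and 4 genes of the partner, target and astrocyte lists with the smallest unadjusted p, the 5 most correlated genes of each member, reference genes, and list genes whose role is described. A gene that this rule names is not reported here. Cell type lists covered astrocytes, oligodendrocytes and their precursors, neurons, microglia, vessels, ependyma, fibroblasts and blood. Gene models were GENCODE M21. Ratios were tested by exact permutation within each sex, and correlations by 100000 permutations. The fits were run on simulated counts with the same spread setting for every gene and larger folds than the 5 genes had. That run checks the code and does not measure power for effects of the size seen here. Alternatives were pseudocounts of 0.5 and 10, no filter or one of 50, TMM scaling, edgeR and DESeq2 on recovered reads, all 12 libraries, a replicate block, and leaving out each library. Software was limma 3.58.1, edgeR 4.0.16 and DESeq2 1.42.0 in R 4.3.3, and SciPy 1.17.1 in Python 3.11.15.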

Additional observations from a re-analysis of the deposited data

How the results depend on the processing

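None of the 5 genes passed an adjusted p of 0.05 in any of the 5 comparisons under any alternative run. Zbtb20 kept its higher direction in cKO in both sexes and in their average with every scaling and test. The filters could not alter this, since they leave the limma estimate of a kept gene unchanged. Zbtb20 lay at 0.41 to 0.58 in the average when each library was left out. Relative to astrocyte markers it was -0.35, where Nfia had -0.66, Nfib -0.65 and Nfic -0.62, the same marker mean being subtracted from each. The causes of the reversals below were not tested. For Nfix in males the estimate was 0.00657 with all 12 libraries and 0.037 with a replicate block (-0.33 to 0.17 leaving out libraries). In females, leaving out libraries gave -0.31 to 0.027 for Nfia, -0.17 to 0.019 for Nfib and -0.36 to 0.12 for Nfic, which was 0.09 without both cKO replicate 3 libraries. The difference of the cKO effects for Nfix was -0.47 to 0.038 leaving out libraries. Among controls, female minus male was 0.024 with TMM, 0.036 with edgeR and 0.036 with DESeq2 for Nfic (-0.26 to 0.26 leaving out libraries), and 0.024, 0.048 and 0.040 for Zbtb20 (-0.22 to 0.12).

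The log2 ratio of Nfia over Nfic was 0.024 and that of Nfib over Nfic 0.048 with all 12 libraries. Leaving out libraries, they were -0.21 to 0.16 and -0.18 to 0.15, and Nfia over Nfib was -0.13 to 0.11. Within female libraries the correlations that had passed were 0.77 (Nfib with astrocyte markers), 0.82 (Nfix) and -0.37 (Zbtb20, both with oligodendrocyte markers), and within controls 0.81, 0.79 and -0.65, none passing in sets of 6.

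Counts over all genes depended on the test. DESeq2 called 29 in the average, 84 in males, 2 in females, 11 for the difference of effects and 6 among controls, where limma called 0, 0, 0, 0 and 5. Leaving out libraries gave 0 to 2 in the average, 0 to 22 in males (14 without both cKO replicate 3 libraries), 0 to 1 in females, 0 to 1 for the difference and 2 to 6 among controls, where a filter of 50 gave 2 and all 12 libraries 0. Replicate numbers are shared by the groups. Deviations of same-numbered libraries had correlations of -0.11 to 0.06 over 15 pairs, so no pairing by number was seen. Deviations within groups of 2 or 3 libraries depend on each other, so this check cannot decide whether the numbers pair the samples. With a replicate block limma called 0 genes in the average (946 at an unadjusted p under 0.05) and Zbtb20 had 0.44.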

Other observations

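Other cell type markers differed between the groups as well, with 0 genes of any list passing in limma in the average of the sexes (7 oligodendrocyte, 12 astrocyte, 2 neuronal and 1 endothelial marker at an unadjusted p under 0.05, and none of the others, against 8.57% of all genes). In the average of the sexes the median log2 fold change of cKO over control was 0.95 for astrocyte markers (19 of 19 higher), -0.68 for oligodendrocyte markers (10 of 12 lower) and -0.23 for oligodendrocyte precursor markers (4 of 6 lower). It was 0.36 for endothelial and mural markers (6 of 8 higher), 0.86 for fibroblast markers (5 of 5 higher), 0.29 for neuronal markers (5 of 9 higher) and 0.09 for microglial markers (5 of 9 higher). It was -0.30 for ependymal markers (3 of 4 lower). Of all genes tested, 48.3% were higher in this comparison. Blood markers were at or near 0 in several libraries, with sums of 0 to 655 normalized counts in male cKO and 38.4 to 4552 in male controls, and 0 to 21.2 in female cKO and 0 to 654 in female controls. Microglial markers had a median of 0.62 in females, with 9 of 9 higher in cKO, and -0.41 in males, with 6 of 9 lower. Their mean log2 level was 6.30 to 7.94 in female cKO and 6.06 to 6.61 in female controls, so these groups overlapped. The highest value was that of female cKO replicate 3. In males it was 5.77 to 6.13 in cKO and 6.31 to 6.74 in controls. Markers of a set share the same libraries, so their directions are not independent. The counts of markers cover the genes that passed the filter on low values. Slc32a1 of the neuronal list, Pifo of the ependymal list, and Hbb-bs and Hba-a1 of the blood list did not pass it. Dnah12 of the ependymal list was not analysed here.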
